A study of Homo sapiens with 16 samples.

Results

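The comparison described here is the difference between 2 colon cancer cell lines, SW480 and SW620, in how gene expression changed with dnLEF1. dnLEF1 is a construct meant to block Wnt signalling. The comparison used all 16 libraries of the series, 4 in each of 4 groups. These were SW480 with GFP, SW480 with dnLEF1, SW620 with GFP and SW620 with dnLEF1. For each gene the line difference is the log2 fold change of dnLEF1 over GFP in SW620 minus the same log2 fold change in SW480, taken from 1 fit of the 4 group means. A positive value means that the gene ended higher, relative to its own GFP control, in SW620 than in SW480, either because it fell less or because it rose more. Of 26485 gene symbols listed, 14926 had enough counts to be tested.

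The GFP groups are the mock controls and are labelled as having high Wnt activity, and the dnLEF1 groups are labelled as Wnt inhibited. All 16 libraries came from passage 6 and from polyadenylated RNA of cells grown in DMEM. SW480 was derived from a primary colon tumour and SW620 from a lymph node metastasis of the same patient, and both are established lines with a truncated APC. The labels do not say whether a group is 1 clone, what drives the construct, or whether the 4 libraries of a group are separate cultures. The spread that each p-value rests on is that among the libraries of a group and may be technical only, and a difference between lines cannot be told apart from a difference between the populations that carry the constructs.

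In Wnt signalling, beta-catenin escapes destruction, enters the nucleus and activates genes that are held by the DNA-binding factors TCF7, TCF7L1, TCF7L2 and LEF1. Loss of APC keeps that switch on in most colon cancers. dnLEF1 is a dominant-negative LEF1: without its beta-catenin binding region it can hold target sites but cannot switch the genes on. Several of the genes that the pathway activates, such as AXIN2, NKD1, NOTUM and SP5, are inhibitors of the pathway, and others, such as LGR5 and ASCL2, mark the stem cells at the base of the intestinal crypt.

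TCF and LEF proteins bind the letters CTTTGAA or CTTTGAT. The promoters of 4 genes described below are shown because each holds such a match: SP5, CDX2 and FGF18, which fell with dnLEF1 in SW480 and had no called effect in SW620, and DKK1, a secreted Wnt inhibitor without a called line difference. Each is the 250 bases before the RefSeq start on GRCh38.p14, read 5′ to 3′ on the gene's strand, with matches on either strand in capitals (TTCAAAG is CTTTGAA on the other strand). They lie at chr2:170715087-170715336 on the plus strand for SP5, chr13:27969316-27969565 on the minus strand for CDX2, chr5:171419397-171419646 on the plus strand for FGF18 and chr10:52314031-52314280 on the plus strand for DKK1.
SP5: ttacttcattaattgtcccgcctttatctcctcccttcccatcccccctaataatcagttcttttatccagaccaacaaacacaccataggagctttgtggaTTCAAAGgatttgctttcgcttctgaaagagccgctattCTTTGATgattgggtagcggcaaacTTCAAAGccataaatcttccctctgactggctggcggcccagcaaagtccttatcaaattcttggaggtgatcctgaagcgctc
CDX2: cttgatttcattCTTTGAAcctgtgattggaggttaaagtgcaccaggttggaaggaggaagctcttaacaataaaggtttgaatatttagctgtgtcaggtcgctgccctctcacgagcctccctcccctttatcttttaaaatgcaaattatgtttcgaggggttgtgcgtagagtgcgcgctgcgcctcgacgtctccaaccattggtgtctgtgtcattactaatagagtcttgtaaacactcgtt
FGF18: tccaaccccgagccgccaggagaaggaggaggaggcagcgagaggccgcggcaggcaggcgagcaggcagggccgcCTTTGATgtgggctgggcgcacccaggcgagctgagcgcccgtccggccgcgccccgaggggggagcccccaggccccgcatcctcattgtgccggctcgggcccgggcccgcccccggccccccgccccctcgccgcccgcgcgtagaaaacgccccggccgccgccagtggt
DKK1: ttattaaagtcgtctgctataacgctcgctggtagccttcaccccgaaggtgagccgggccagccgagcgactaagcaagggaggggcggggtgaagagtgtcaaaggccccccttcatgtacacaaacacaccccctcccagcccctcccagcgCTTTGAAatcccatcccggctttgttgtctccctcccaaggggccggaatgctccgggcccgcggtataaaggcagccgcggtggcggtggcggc

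SP5 held 3 matches, which began 148, 109 and 84 bases before the start. CDX2 held 1 match at 238 bases, FGF18 1 at 174 bases and DKK1 1 at 95 bases. No match to these letters was present in the same window of NKD2, APCDD1, RNF43, LEF1 or TNFRSF19. The letters were present in 2086 of all 35116 windows of that length (5.94%) and in 590 of the 10784 tested genes that could be matched to a window (5.47%). Among genes with a called positive line difference that fell in SW480 the share was 7.55% (118 of 1562), and among those with a difference of at least 2-fold it was 10.3% (49 of 475). Among genes with a called negative line difference that rose in SW480 it was 4.00% (49 of 1226). A match is a description of the sequence and not a binding site.

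LEF1 itself was read first, because its counts hold the construct and the endogenous gene together. LEF1 (chromosome 4, 108047545 to 108168956 on GRCh38) stood at 52.6, 52.3, 48.8 and 52.9 CPM (read counts scaled to the library's effective total) in the 4 SW480 GFP libraries. It stood at 273, 271, 269 and 173 CPM with dnLEF1. For SW620 the libraries gave 3.63, 3.92, 2.82 and 3.08 CPM with GFP and 25.6, 20.1, 23.2 and 24.2 CPM with dnLEF1. Every dnLEF1 library lay above every GFP library of its own line, but all 4 SW620 dnLEF1 libraries lay below all 4 SW480 GFP libraries. LEF1 rose by 2.25 ± 0.11 (log2, SE) in SW480 and by 2.79 ± 0.15 in SW620. The line difference of 0.53 ± 0.19 had an adjusted p of 0.043 by edgeR's quasi-likelihood test, and 11 of 27 alternative settings took it past 0.05, 9 of which each left out 1 library of a group other than SW480 dnLEF1 (adjusted p 0.0226 to 0.127 over the 27). The 2 dnLEF1 groups thus differed in the level that LEF1 reached, from 246 ± 49.1 (SD, n = 4) CPM in SW480 to 23.3 ± 2.35 CPM in SW620, and that difference in level and the difference between lines cannot be told apart in what follows.

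The dnLEF1 effect differed between the lines for 4248 of the 14926 genes (28.5%; adjusted p below 0.05). The difference was positive for 2418 genes (16.2%) and negative for 1830 (12.3%), and it reached 2-fold for 1264 genes (8.47%), 767 of them positive. In the same fit 3594 genes rose (24.1%) and 3857 fell (25.8%) in SW480, against 824 that rose (5.52%) and 330 that fell (2.21%) in SW620. The errors were alike, with a median SE of 0.098 in each line. The median absolute effect over all genes was 0.26 (log2) in SW480 and 0.105 in SW620. Of the 4248 genes, 3588 (84.5%) had the larger absolute effect in SW480.

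Most of the 4248 genes moved in SW480 alone. SW480 had a called effect and SW620 had none for 3367 of them (79.3%), 1822 of which fell and 1545 of which rose in SW480. The reverse held for 288 genes, 218 of which rose and 70 of which fell in SW620. Another 259 genes moved in opposite directions (1.74% of genes tested): 202 fell in SW480 and rose in SW620, and 57 rose in SW480 and fell in SW620. A further 123 moved the same way with the larger effect in SW480, 49 moved the same way with the larger effect in SW620, and 162 had no called effect in either line alone. Across all tested genes the effects in the lines, which share no libraries, had a Pearson correlation of 0.078 and a Spearman correlation of 0.146. Over the 11748 genes with a mean of at least 5 CPM in 1 group the Pearson correlation was 0.111. Genes are not independent replicates, and this is a description of the 2 sets of fold changes.

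**Figure D1:**
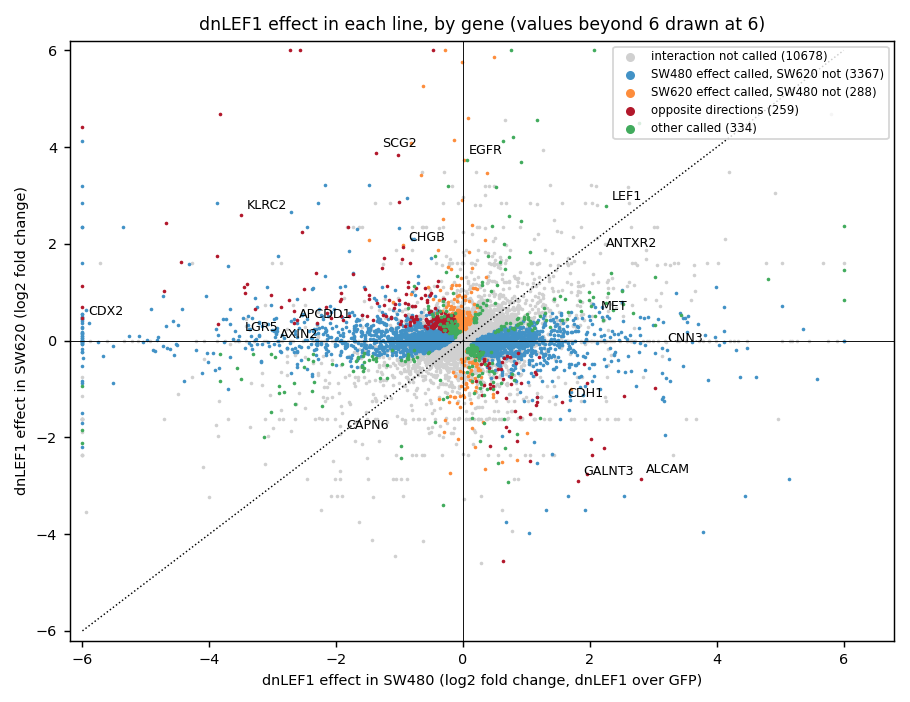
Each point is 1 of 14926 genes, with its log2 fold change of dnLEF1 over GFP in SW480 on the horizontal axis and in SW620 on the vertical axis; values beyond 6 are drawn at 6. Colours give the pattern of calls, and the 3367 genes with a called effect in SW480 and none in SW620 form the horizontal band, while the 259 genes with opposite directions lie at the upper left and lower right.

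The pathway's own inhibitors had the highest median line difference of the 34 gene lists described here. The counts of each list are to be read beside the 16.2% positive and 12.3% negative over all genes tested. Of 10 tested members of the Wnt negative feedback list, 7 had a called positive line difference and 1 a called negative one, with a median line difference of 2.28 (log2), beside 0.02 over all genes tested. AXIN2, the scaffold of the beta-catenin destruction complex (chromosome 17, 65528563 to 65561648), stood at 567, 544, 542 and 548 CPM in SW480 GFP and at 71.5, 72.5, 72.0 and 63.1 CPM in SW480 dnLEF1. The SW620 values were 348, 335, 337 and 313 CPM with GFP and 335, 312, 321 and 311 CPM with dnLEF1. The groups were wide apart in SW480 and overlapped in SW620. The fall was 7.88-fold in SW480, the log2 effect in SW620 was -0.06 ± 0.06, and the line difference was 2.92 ± 0.08 (adjusted p = 1.0e-15, edgeR).

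NKD1, which binds Dishevelled and dampens the pathway (chromosome 16, 50548396 to 50649249), stood at 438, 534, 533 and 587 CPM in SW480 GFP and at 51.1, 63.1, 65.9 and 51.9 CPM with dnLEF1. In SW620 it was read at 2410, 2770, 2780 and 2870 CPM with GFP and at 2300, 2410, 2850 and 2820 CPM with dnLEF1. SW620 thus held more NKD1 in both groups than SW480 held in its GFP group, and its groups overlapped. The line difference was 3.11 ± 0.14 (adjusted p = 1.0e-12, edgeR).

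SP5, a zinc finger repressor of Wnt target genes whose promoter with 3 matches is shown above, lay between 103 and 117 CPM in SW480 GFP and between 16.1 and 19.5 CPM with dnLEF1. In SW620 it lay between 110 and 125 CPM with GFP and between 101 and 114 CPM with dnLEF1. The 2 lines began at alike levels, with means of 108 ± 6.45 and 116 ± 6.26 CPM, and SP5 fell 6.03-fold in SW480, while the SW620 groups overlapped (line difference 2.49 ± 0.10). NOTUM, an enzyme that inactivates Wnt ligands, went from 95.1 to 9.46 CPM in SW480 and from 614 to 542 CPM in SW620, a line difference of 3.15 ± 0.16. ZNRF3, which removes Wnt receptors from the cell surface, had a line difference of 1.68 ± 0.11, and NKD2 one of 2.07 ± 0.18. NKD2 also fell in SW620 (log2 -0.37 ± 0.11, adjusted p = 0.0421), less than in SW480 (log2 -2.44).

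APCDD1, a membrane inhibitor of Wnt signalling, moved in opposite directions. It stood at 596, 761, 729 and 713 CPM in SW480 GFP and at 119, 111, 107 and 103 CPM with dnLEF1, a fall of 6.35-fold. SW620 libraries held 17.3, 15.9, 15.9 and 18.3 CPM with GFP and 19.9, 22.1, 21.6 and 22.9 CPM with dnLEF1, a rise of 1.28-fold. The groups of either line did not overlap. RNF43, the partner of ZNRF3, had no called line difference (0.23, 95% interval 0.03 to 0.42, adjusted p = 0.0741), nor had DKK1 (-0.43, interval -0.94 to 0.07, adjusted p = 0.197). DKK4, the 1 member with a called negative difference (-2.34), averaged 1.5 CPM or less in every group.

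**Figure D2:**
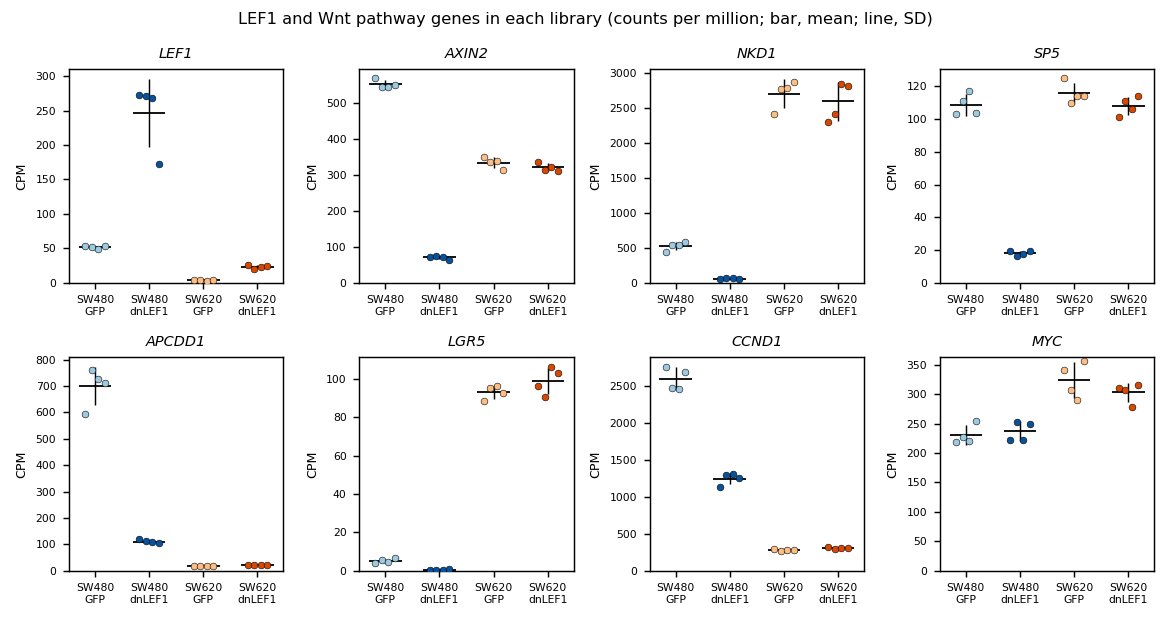
CPM of LEF1 and 7 Wnt pathway genes in each of the 16 libraries, with 1 point per library, a bar at the group mean and a line for 1 SD. The SW480 dnLEF1 libraries lie far below the SW480 GFP libraries for AXIN2, NKD1, SP5, APCDD1, LGR5 and CCND1, while the SW620 groups lie close together, and MYC stays near 230 CPM in SW480.

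Among 15 tested crypt stem cell genes 7 differed positively and 1 negatively, with a median of 0.38. LGR5, the receptor that marks crypt stem cells (chromosome 12, 71439798 to 71586310), stood at 3.87, 5.32, 4.24 and 6.52 CPM in SW480 GFP and at 0.394, 0.423, 0.337 and 0.556 CPM with dnLEF1. In SW620 it stood at 88.4, 95.2, 96.3 and 92.7 CPM with GFP and at 96.5, 90.7, 106 and 103 CPM with dnLEF1. The 2 lines differed in LGR5 level before dnLEF1 as well as in the response to it, and the line difference was 3.62 ± 0.22 (adjusted p = 1.1e-10, edgeR). ASCL2, a transcription factor of the stem cell, went from 39.0 to 7.44 CPM in SW480 and from 87.1 to 90.9 CPM in SW620 (line difference 2.45 ± 0.16). SOX4 and CDK6 had line differences of 1.76 and 1.01. TNFRSF19, a receptor known as TROY, fell in SW480 (38.8 to 9.19 CPM) and rose in SW620 (14.3 to 19.8 CPM). LRIG1, an inhibitor of receptor kinases, rose in both lines and more in SW480 (line difference -0.53 ± 0.10). EPHB2, SMOC2, RGMB, CDCA7, SOX9, PROM1 and MSI1 had no called difference.

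The other genes reported as Wnt targets did not share a direction. Of 27 tested, 10 differed positively and 6 negatively, with a median of 0.07. CCND1, which encodes cyclin D1, stood at 2760, 2470, 2450 and 2690 CPM in SW480 GFP and at 1130, 1290, 1300 and 1250 CPM with dnLEF1. For SW620 the libraries gave 291, 259, 276 and 282 CPM with GFP and 322, 286, 300 and 302 CPM with dnLEF1. It fell 2.09-fold in SW480, the SW620 groups overlapped, and the line difference was 1.19 ± 0.09 (adjusted p = 1.9e-09, edgeR). FGF18, a growth factor with 1 match in the promoter shown, went from 7.31 to 0.999 CPM in SW480 and from 9.85 to 8.41 CPM in SW620 (line difference 2.64 ± 0.26). The signalling genes BMP4 and ID2 had line differences of 1.26 ± 0.08 and 1.63 ± 0.22.

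MYC, the best known target of the pathway in colon cancer, showed no called effect in either line. Its means were 230 ± 16.7 and 237 ± 16.9 CPM in SW480 GFP and dnLEF1, and 324 ± 30.2 and 303 ± 16.5 CPM in SW620 GFP and dnLEF1. The line difference was -0.14 with a 95% interval of -0.35 to 0.08 (adjusted p = 0.346, edgeR), so a difference of 2-fold either way lay outside that interval. The negative differences of the list came from genes that rose in SW480. MET, the receptor for hepatocyte growth factor, stood at 46.3, 40.9, 40.6 and 50.1 CPM in SW480 GFP and at 182, 204, 202 and 163 CPM with dnLEF1. The SW620 values were 193, 213, 211 and 218 CPM with GFP and 307, 263, 312 and 312 CPM with dnLEF1. MET rose in both lines without overlap, 4.23-fold in SW480 and 1.43-fold in SW620 (line difference -1.56 ± 0.12). VEGFA, PLAUR and TNFRSF21 rose in SW480, had no called effect in SW620, and had line differences of -1.72, -1.29 and -1.30.

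The transcription machinery and the receptors of the pathway also differed. Among 17 tested TCF/LEF factors and nuclear partners 6 differed positively and 3 negatively. CTNNB1, which encodes beta-catenin, fell from 1636 to 753 CPM in SW480 and from 617 to 537 CPM in SW620, and the line difference was 0.92 ± 0.08. TCF7, TCF7L2 and the corepressor TLE3 fell in SW480 and had no called effect in SW620, with line differences of 1.16, 0.85 and 0.81. The corepressor TLE1 rose in SW480 from 3.15 to 65.1 CPM, while its SW620 means were 0.0817 and 0.0424 CPM. Of 28 Wnt ligands and receptors 5 differed each way. WNT6 fell in SW480 from 46.1 to 3.33 CPM and stood at 8.48 and 11.5 CPM in SW620 (line difference 4.24 ± 0.22). The receptor FZD10 fell in SW480, from 0.987, 0.983, 1.19 and 0.957 CPM to 0.131, 0.0423, 0.0421 and 0.0463 CPM. It rose in SW620, from 39.0, 34.2, 35.2 and 33.7 CPM to 46.4, 44.5, 43.6 and 45.3 CPM. FZD6, another Frizzled receptor, did the reverse, with a log2 effect of 0.41 in SW480 and -0.57 in SW620.

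The series names adhesion, junctions and movement as its subject, and in these lists line differences of both signs occurred. CDH1, which encodes E-cadherin, the adhesion molecule of epithelial adherens junctions (chromosome 16, 68737292 to 68835537), stood at 9.52, 14.6, 13.7 and 15.5 CPM in SW480 GFP and at 30.6, 44.5, 44.6 and 36.3 CPM with dnLEF1. SW620 libraries held 57.9, 67.5, 69.1 and 66.1 CPM with GFP and 28.6, 24.1, 26 and 29 CPM with dnLEF1. CDH1 rose 2.94-fold in SW480 and fell 2.41-fold in SW620 without overlap in either line, and the 2 dnLEF1 groups, at 39.0 ± 6.83 and 26.9 ± 2.34 CPM, lay closer than the GFP groups. The line difference was -2.83 ± 0.18 (adjusted p = 1.7e-10, edgeR).

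Of 20 tested genes of the adherens junction and desmosome list, CDH1 included, 4 differed positively and 6 negatively, with a median of 0.23. DSG2, a desmosomal cadherin, fell in SW480 from 82.2 to 34.8 CPM and stood at 119 and 101 CPM in SW620, a line difference of 1.00 ± 0.14. CTNNA1, which links cadherins to actin, fell in both lines and more in SW480 (line difference 0.59 ± 0.08). JUP, a catenin of both junction types, had no called effect in SW480 and fell in SW620 (log2 -0.65; line difference -0.65 ± 0.17). PERP, a desmosome protein, rose in SW480 from 152 to 361 CPM and had means of 581 and 668 CPM in SW620 (line difference -1.04 ± 0.09). CDH17, the intestinal cadherin, had a mean of 6.69 CPM in SW480 GFP and no count in SW480 dnLEF1, against 0.833 and 0.246 CPM in SW620.

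Among 23 tight junction genes 7 differed positively and 6 negatively. CXADR, an adhesion protein of the junction, fell in SW480 from 85.5 to 12.9 CPM and stood at 42.0 and 40.4 CPM in SW620 (line difference 2.68 ± 0.12). CGNL1, a junctional scaffold, fell from 4.92 to 0.163 CPM in SW480 and had means of 61.9 and 53.2 CPM in SW620. Its relative CGN went the other way, with a rise from 7.70 to 13.9 CPM in SW480 and means of 19.4 and 15 CPM in SW620 (line difference -1.23 ± 0.21). The claudins CLDN12 and CLDN15 differed positively (0.63 and 0.86), and CLDN3 and CLDN7 negatively (-0.69 and -0.66). Of 6 connexins, which form gap junctions, 4 differed positively and GJB2 negatively (-0.58). GJB1 fell in SW480 from 101 to 40.0 CPM and stood at 164 and 194 CPM in SW620 (line difference 1.58 ± 0.14), and GJC1 rose in both lines, more in SW620.

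ALCAM, an adhesion molecule of the immunoglobulin family, had the largest opposite change among the list members on the negative side. It stood at 2.37, 3.40, 3.00 and 3.19 CPM in SW480 GFP and at 18.3, 22.6, 23.6 and 18.5 CPM with dnLEF1. In SW620 it stood at 11.9, 12.6, 16.3 and 12.8 CPM with GFP and at 2.23, 1.84, 1.93 and 1.45 CPM with dnLEF1. The rise in SW480 was 6.97-fold, the fall in SW620 7.21-fold, and the line difference -5.65 ± 0.21 (adjusted p = 5.0e-14, edgeR). The protocadherins PCDH19 and PCDH9, cell surface cadherins, fell in SW480 and had no called effect in SW620. PCDH19 stood at 37.8, 38.4, 39.9 and 43.7 CPM in SW480 GFP and at 0, 0, 0.168 and 0.139 CPM with dnLEF1. In SW620 it lay between 82.6 and 107 CPM with GFP and between 79.9 and 92.1 CPM with dnLEF1, and these ranges overlapped. PCDH9 had 3961 counts over the SW480 GFP libraries and none over the SW480 dnLEF1 libraries, which is at least 1338-fold lower against a floor of 3 counts over the group, while its SW620 means were 8.17 and 7.72 CPM. The floor covers counting error only.

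Genes of attachment to the matrix leaned to the negative side in number. Of 29 cell-matrix adhesion genes 4 differed positively and 8 negatively, and of 26 extracellular matrix genes 4 and 9. ITGA1, a collagen receptor subunit, was the largest positive one of the first list: it stood at 146, 115, 103 and 130 CPM in SW480 GFP, at 12.8, 12.4, 12.5 and 9.82 CPM with dnLEF1, and between 2.17 and 3.26 CPM in all 8 SW620 libraries. The line difference was 3.62 ± 0.20 (adjusted p = 1.5e-11, edgeR). The integrin subunits ITGAV, ITGA3, ITGA5 and ITGB8 had called differences of -0.54, -0.47, -0.55 and -1.32. TNC, which encodes tenascin C, rose in SW480 from 12.6 to 145 CPM and had means of 541 and 748 CPM in SW620 without a called effect (line difference -3.04 ± 0.33). FBLN1, a fibulin, rose in SW480 from 10.3 to 52.6 CPM (line difference -2.15 ± 0.13). LAMA3, a laminin chain of the epithelial basement membrane, had no called effect in SW480 and fell in SW620 (log2 -0.93). LUM, a proteoglycan, had 643 counts over SW480 GFP and none over SW480 dnLEF1, at least 217-fold lower, and SW620 means of 24.8 and 27.8 CPM.

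Actin and guidance genes were similarly divided. Of 39 actin and motility genes 7 differed positively and 11 negatively. CNN3, an actin-binding calponin, rose 8.80-fold in SW480, from 1.97 to 17.4 CPM, and stood at 220 and 200 CPM in SW620 without a called effect (line difference -3.28 ± 0.14). ENAH and TPM1, which build actin filaments, had line differences of -1.32 and -1.16. FSCN1, which bundles actin, fell in both lines and more in SW480 (line difference 0.94 ± 0.16). Of 29 guidance receptors and ligands 10 differed positively and 5 negatively. ROBO1 and the ephrin EFNB1 fell in SW480 (53.1 to 10.8 and 214 to 41.8 CPM), with line differences of 2.24 and 1.94. EFNB2 rose in SW480 from 19.5 to 63.4 CPM and stood at 369 and 316 CPM in SW620 (line difference -1.93 ± 0.11). Among 14 genes of the epithelial to mesenchymal transition 1 differed positively and 5 negatively. VIM, the mesenchymal filament protein, had a line difference of -0.34 ± 0.12 (adjusted p = 0.0392), which 12 of 27 alternatives took past 0.05, and ZEB1 had none called (0.20, interval -0.13 to 0.54, adjusted p = 0.368).

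**Figure D3:**
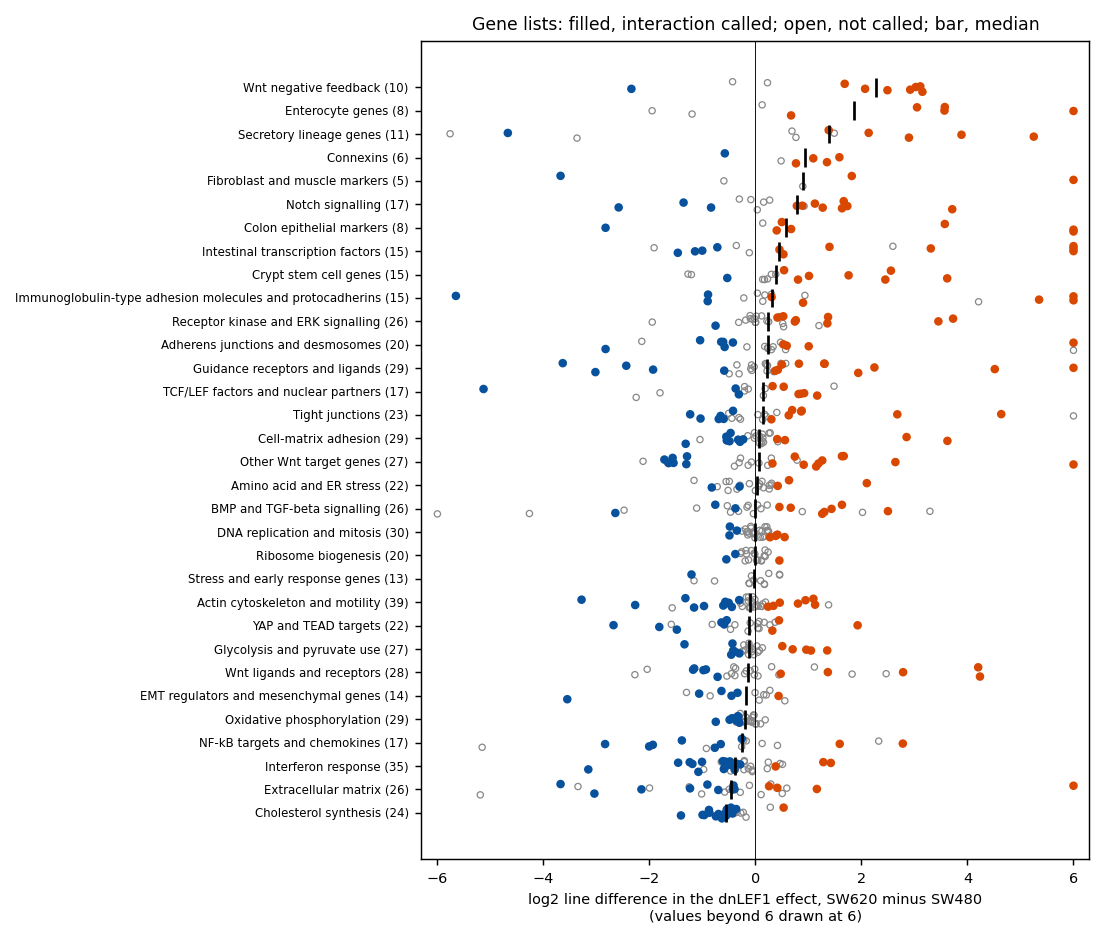
Log2 line difference of every tested member of 32 gene lists, with the number of members in brackets; filled points passed the test (orange positive, blue negative), open points did not, and bars mark list medians. The Wnt negative feedback genes have the highest median (2.28) and the cholesterol synthesis genes the lowest (-0.55), and most other medians lie close to 0.

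Several genes of the differentiated intestine fell in SW480 and fell little or not at all in SW620. Of 15 intestinal transcription factors 7 differed positively and 4 negatively. CDX2, the master regulator of intestinal identity, stood at 11.4, 12.2, 12.9 and 12.3 CPM in SW480 GFP and at 0.175, 0.0423, 0.168 and 0.139 CPM with dnLEF1. For SW620 the libraries gave 9.34, 6.13, 5.11 and 5.90 CPM with GFP and 11.1, 7.86, 7.67 and 8.67 CPM with dnLEF1. The groups did not overlap in SW480 and did in SW620, and the line difference was 6.89 ± 0.34 (adjusted p = 3.1e-12, edgeR). HNF4A and KLF5 had line differences of 0.53 and 1.40. FOXA2, FOXA3 and SOX2, factors of the foregut endoderm, rose in SW480 and had line differences of -1.46, -1.003 and -0.72.

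Of the 22 genes on the enterocyte list only 8 had enough counts to be tested. Among these 8, 5 differed positively and none negatively, with a median of 1.86. In SW480 5 of the 8 fell and 2 rose, and in SW620 1 fell and none rose. VIL1, which encodes villin of the brush border, stood at 31.3, 35.3, 31.9 and 41.3 CPM in SW480 GFP and at 1.75, 2.62, 2.95 and 2.41 CPM with dnLEF1. The SW620 values were 391, 373, 346 and 349 CPM with GFP and 301, 308, 305 and 299 CPM with dnLEF1. VIL1 fell in both lines, 14.3-fold in SW480 and 1.20-fold in SW620 (adjusted p = 0.0457 in SW620), and the line difference was 3.57 ± 0.14. USH1C, a partner of villin in the brush border, had a line difference of 3.05 ± 0.24. TFF3, on the same list, is a secreted trefoil peptide of goblet cells and not an enterocyte product. It had 92 counts over SW480 GFP and none over SW480 dnLEF1, at least 31.1-fold lower. Its SW620 means were 31.9 and 31.3 CPM.

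Among the gene lists, that of the secretory lineages, which include the gut's hormone cells, gave the most opposite changes. Only 11 of its 21 genes had enough counts to be tested. ATOH1, NEUROG3, NEUROD1, INSM1, SPDEF, POU2F3, MUC2 and TRPM5 were among those that did not. Of the 11 tested, 5 differed positively, 1 negatively, and all 5 positive ones fell in SW480 and rose in SW620. SCG2, a protein of hormone granules, stood at 6.95, 7.78, 8.09 and 10.4 CPM in SW480 GFP and at 3.06, 3.22, 3.16 and 3.43 CPM with dnLEF1. SW620 libraries held 1.72, 1.8, 2.4 and 2.64 CPM with GFP and 28.8, 29.8, 34.2 and 33.3 CPM with dnLEF1. It fell 2.58-fold in SW480 and rose 14.8-fold in SW620, and the line difference was 5.25 ± 0.20 (adjusted p = 5.0e-14, edgeR).

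CHGB, another granule protein, stood at 14.6, 15.2, 15.5 and 20.9 CPM in SW480 GFP and at 8.57, 8.17, 9.55 and 7.92 CPM with dnLEF1. In SW620 it stood at 9.66, 7.70, 7.08 and 8.13 CPM with GFP and at 27.3, 35.8, 32.8 and 30.0 CPM with dnLEF1. The levels of the lines thus changed order, with a line difference of 2.90 ± 0.17. DCLK1, a kinase of tuft cells, fell in SW480 from 220 to 109 CPM and rose in SW620 from 0.106 to 0.813 CPM. SCG3 and SYP, a granule protein and a vesicle protein, had line differences of 2.14 and 1.38. CHGA, AGR2, LYZ, DEFA6 and FCGBP had no called difference. In bulk RNA, fewer cells of a type and less RNA per cell cannot be told apart.

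By the rule for named genes, the opposite genes with the largest smaller effect that rose in SW480 and fell in SW620 included ALCAM, GALNT3, PRSS2, CDH1, COL1A1, EPHA1, RIN3 and PDE5A. GALNT3, an enzyme of mucin-type glycosylation, went from 7.30 to 25.6 CPM in SW480 and from 1.68 to 0.211 CPM in SW620. COL1A1, the main collagen chain of connective tissue, went from 4.84 to 28.1 CPM in SW480 and from 4.35 to 2.02 CPM in SW620. RIN3, a regulator of RAB proteins, had a line difference of -2.47 ± 0.14. The genes that fell in SW480 and rose in SW620 included KLRC2, BCHE, STXBP5L, SCG2, MALL, FOXP2, ADAMTS19 and KCNJ10. KLRC2, a receptor known from natural killer cells, went from 13 to 1.15 CPM in SW480 and from 2.60 to 15.8 CPM in SW620, a line difference of 6.10 ± 0.26. KLRC2 has near-identical neighbours in its family, so its counts are uncertain. MALL, a membrane protein of the MAL family, went from 223 to 97.1 CPM and from 5.25 to 11.5 CPM. ADAMTS19 and KCNJ10 had no count in SW620 GFP and were at least 23.4-fold and 3.95-fold higher with dnLEF1. Of the 259 opposite genes, 85 moved by at least 1.5-fold in both lines.

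**Figure D4:**
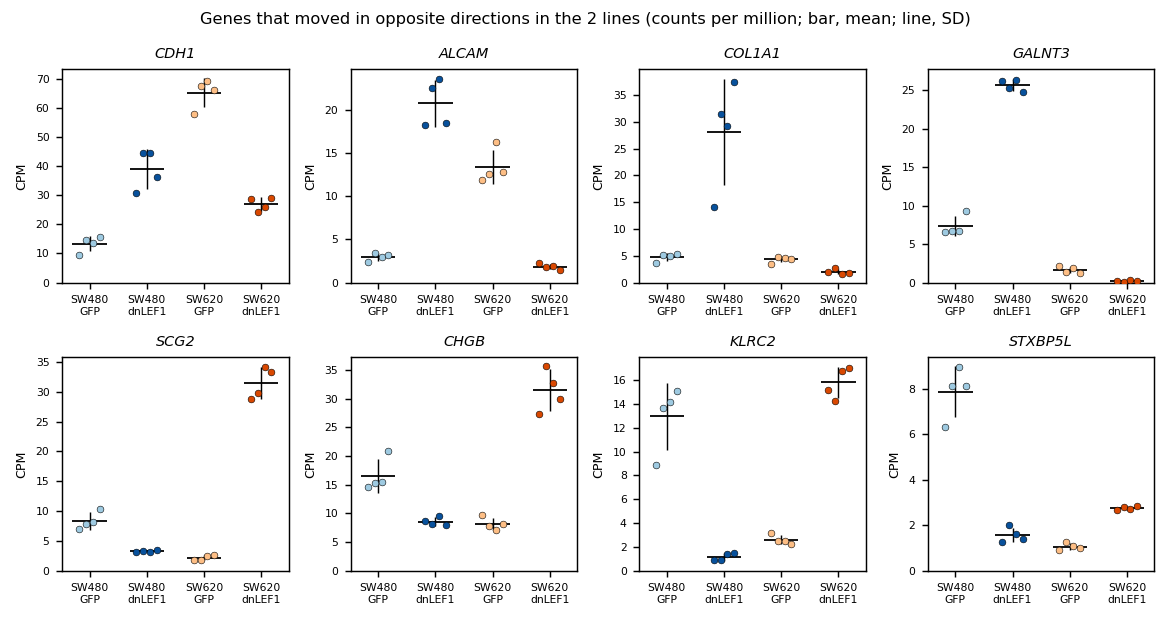
CPM of 8 genes that moved in opposite directions, with 1 point per library, a bar at the group mean and a line for 1 SD. In the upper row the SW480 dnLEF1 libraries lie above and the SW620 dnLEF1 libraries below their GFP controls; in the lower row the order is reversed.

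In Notch signalling, a pathway of contact between cells, 8 of 17 genes differed positively and 3 negatively, with a median of 0.78. The ligand JAG1 fell in SW480 from 16.5 to 7.10 CPM and rose in SW620 from 97.2 to 139 CPM, and the ligand DLL1 did the reverse at low levels. HES6, a member of the HES family, fell in SW480 from 45.5 to 16.3 CPM (line difference 1.63 ± 0.18). In BMP and TGF-beta signalling 7 of 26 differed positively and 3 negatively. ID1, a target of BMP signals, fell in SW480 from 32.6 to 5.77 CPM and stood at 63.2 and 63.5 CPM in SW620, and SMAD6, an inhibitor of the pathway, rose in SW480 from 1.49 to 7.72 CPM and had a line difference of -2.64 ± 0.19. In the YAP and TEAD list 3 of 22 differed positively and 6 negatively. CYR61 stood at 99.1, 112, 108 and 108 CPM in SW480 GFP and at 287, 451, 422 and 480 CPM with dnLEF1, against 4.85 to 10.2 and 5.09 to 11.2 CPM in SW620.

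In the receptor kinase list 8 of 26 genes differed positively and 1 negatively. EGFR, the epidermal growth factor receptor, lay between 34.1 and 55.2 CPM in SW480 GFP and between 28.9 and 51.9 CPM with dnLEF1. For SW620 the libraries gave 0.272, 0.0461, 0.160 and 0 CPM with GFP and 1.78, 1.04, 1.61 and 1.99 CPM with dnLEF1. The SW480 groups overlapped and the SW620 groups did not, yet the SW620 level with dnLEF1 remained far under the SW480 level. The line difference was 3.73 ± 0.61 (adjusted p = 8.7e-05, edgeR).

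Genes of 2 defence programmes differed negatively more often than positively. Of 35 interferon response genes 3 differed positively and 16 negatively, with a median of -0.39, and of 17 NF-kB targets and chemokines 2 and 7, with a median of -0.26. MX1, an antiviral GTPase, stood at 7.58, 9.39, 8.28 and 11.1 CPM in SW480 GFP and at 26.4, 24.3, 23.4 and 21.8 CPM with dnLEF1. In SW620 it lay between 2.08 and 4.05 CPM with GFP and between 2.67 and 3.50 CPM with dnLEF1. B2M, the light chain of MHC class I, lay between 345 and 374 CPM in SW480 GFP and between 536 and 614 CPM with dnLEF1. In SW620 B2M lay between 277 and 303 CPM with GFP and between 302 and 331 CPM with dnLEF1. Its line difference was -0.60 ± 0.08, and those of the class I heavy chains HLA-B and HLA-C were -1.24 and -0.57. The heavy chains are near-identical in parts, so their counts are uncertain. SAMD9 and OAS2 differed positively, at 1.42 and 1.28. CXCL8 and CXCL1, which attract neutrophils, differed positively (2.78 and 1.59), and TNFAIP2 and BIRC3 negatively (-2.01 and -1.94).

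Cholesterol synthesis had a median of -0.55, the lowest of the lists with more than 4 tested members, with 1 positive and 15 negative called differences among 24 genes. In SW480 14 members rose and 2 fell, and in SW620 none rose and 5 fell. MVD, an enzyme of the mevalonate pathway, rose in SW480 from 24.9 to 40.0 CPM and stood at 27.7 and 22.9 CPM in SW620 without a called effect (line difference -0.97 ± 0.20). MSMO1, a later enzyme that removes methyl groups from sterols, rose in SW480 from 56.5 to 82.4 CPM and stood at 32.9 and 24.1 CPM in SW620 (line difference -0.998 ± 0.24, adjusted p = 0.00342, edgeR). HMGCS1, an early enzyme of the pathway, fell in SW620 from 115 to 75.3 CPM and had means of 69.5 and 83.2 CPM without a called effect in SW480. INSIG1, a sterol-sensing regulator of the pathway, rose in SW480 from 66.0 to 103 CPM (line difference -0.88 ± 0.25).

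Oxidative phosphorylation genes differed in 1 direction and by small amounts: 10 of 29 differed negatively, none positively, with a median of -0.20. ATP5G1, a subunit of the ATP synthase, had the largest difference of them (-0.75 ± 0.17), with 64.2 and 97.9 CPM in SW480 and 84.6 and 77.0 CPM in SW620. Glycolysis was divided, with 5 positive and 6 negative among 27. SLC2A3, a glucose transporter, fell in both lines, from 1434 to 274 CPM in SW480 and from 43.5 to 21.3 CPM in SW620. DNA replication and mitosis (4 positive and 3 negative of 30) and ribosome biogenesis (1 and 2 of 20) had called shares under the 28.5% of all genes, and medians of -0.01 and -0.02.

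The 288 genes with a called effect in SW620 and none in SW480 included some that SW620 hardly expressed without dnLEF1. VAT1L stood at 0.0453, 0, 0 and 0.0893 CPM in SW620 GFP and at 5.89, 6.20, 6.65 and 7.01 CPM with dnLEF1, from 3 counts over the GFP libraries and 558 over the dnLEF1 libraries. In SW480 VAT1L lay between 9.97 and 12.3 CPM with GFP and between 7.59 and 10.6 CPM with dnLEF1. The rise took VAT1L in SW620 close to its SW480 level. IQGAP2, a scaffold of the cytoskeleton, rose in SW620 from 0.341 to 1.78 CPM, and F13A1, a clotting factor subunit, from 1.00 to 5.65 CPM, while in SW480 their means were 129 and 142 CPM and 31.7 and 25.4 CPM. Of the genes that fell in SW620 alone, ANXA6, a membrane-binding annexin, went from 9.71 to 4.38 CPM (line difference -1.02 ± 0.20).

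RNA45S5, the ribosomal RNA precursor, fell in SW620 from 52.0, 44.9, 163 and 54.3 CPM to 9.64, 10.5, 13.5 and 15.8 CPM, with a line difference of -3.00 ± 0.47. Without the library at 163 CPM, SW620 GFP replicate 3, it was -2.36. RN7SL1, an RNA of the signal recognition particle, had a line difference of -3.32, which dropped to -0.78 (adjusted p = 0.0113) without that same library. Both belong to families of near-identical copies, so their counts are uncertain. In SW620 GFP replicate 3, 39.4% of reads were counted as aligned to more than 1 place, against 7.61% to 9.46% in the other 15 libraries. Its part in these results was tested only by leaving it out.

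A low level in 1 line bears on many of the largest differences. Of the 1264 genes with a difference of at least 2-fold, 356 (28.2%) had under 1 CPM in both SW620 groups, against 15.9% of all tested genes. For 95 of the 4248 genes (2.24%) the sign of the line difference was not that of the difference in CPM, because the levels of the lines differed. Markers of other cell types were low: 10 leukocyte markers summed to at most 23.3 CPM in any library and 7 endothelial markers to at most 8.07. For 10 fibroblast and muscle markers the sum was at most 56.9. The 10 colon epithelial markers summed to 7519 CPM or more. Of these 10, 2 averaged under 1 CPM in SW480 GFP, 4 in SW480 dnLEF1 and 3 in each SW620 group. Of the 8 that were tested, 7 fell and 1 rose in SW480, and 2 fell in SW620.

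A small set of genes moved alike in the 2 lines. Both effects were called for 723 genes, 464 of them in the same direction, and for 292 of those the line difference was not called. CAPN6, a calpain-like protein, fell in both (log2 -1.93 ± 0.30 in SW480 and -1.94 ± 0.23 in SW620), and its line difference was not called. It stood at 1.07, 1.97, 1.62 and 2.60 CPM in SW480 GFP and at 0.437, 0.593, 0.547 and 0.278 CPM with dnLEF1, and at 4.90, 6.87, 4.26 and 6.39 CPM and 1.34, 1.23, 1.61 and 1.62 CPM in SW620. ANTXR2, a receptor for anthrax toxin, rose 4.47-fold in SW480 and 3.53-fold in SW620 (line difference -0.34, interval -0.70 to 0.02). FGD5, an activator of CDC42, fell in both, from 183 to 48.6 CPM and from 16 to 5.66 CPM, with an adjusted p of 0.0546 for the line difference, and 7 of 27 alternatives took it below 0.05.

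Line differences were not spread evenly over the genome. By chromosome the median line difference was highest on chromosome 5 (0.26), chromosome 7 (0.21) and chromosome 10 (0.19). It was lowest on chromosome 19 (-0.15) and chromosome 17 (-0.14), where the median effect in SW480 was 0.12 and 0.13. On chromosome 7 the median effect was 0.25 in SW620 and 0.02 in SW480, over 667 genes. On chromosomes 5 and 10 the median effect in SW480 was -0.16 and -0.21, against 0.02 and -0.01 in SW620. Of the 202 genes that fell in SW480 and rose in SW620, 105 (52.0%) lay on chromosomes 5, 7 and 20, against 11.01% of the genes tested. Of the 218 genes that rose in SW620 alone, 135 (61.9%) lay there. For the 57 genes that rose in SW480 and fell in SW620 the number was 6. Of the 202 genes, 40 lay on chromosome 5, 52 on chromosome 7, 13 on chromosome 20 and 4 on chromosome 10. Chromosome 20 had a lower median line difference (0.08) than chromosome 10. The grouped shares thus depend on which chromosomes were taken and are a description only.

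The unevenness also held on a finer scale. Of 237 bins of 10 Mb with at least 20 tested genes, 37 had a median line difference of at least 0.2. These 37 held 1451 of the 13497 tested genes with a position. They held 607 of the 2418 genes with a positive difference (25.1%), a total that also counts genes without a position. The bins were picked by the same values, so a raised share follows from the choice and is a description only. In the highest bin, on chromosome 5 from 50 to 60 Mb, 24 of 25 genes had a positive value and 16 were called. ITGA1 lies in that bin, and SP5, BMP4, TCF7, CTNNA1, CLDN12, GJB1, KLF5, CHGB, BAMBI and JAG1 lie in others of the 37. The 37 bins also held 65 genes with a called negative difference, among them PRSS2 (-4.05), EPHA1 (-2.44), TGFBI (-1.06) and LAMB1 (-0.70). NOTUM, FZD2, PVR, BCAM, KRT19 and ISG15 lie in the 9 bins with a median of -0.2 or less. Without all 46 bins, an alternative chosen after seeing the data, 12547 genes were tested and 3230 called, and 3190 of the 3308 earlier calls among them were kept. DNA copy number was not measured in these files, and its part in these blocks was not tested. How far the blocks overlap with the trend by GC content described below was not tested either.

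**Figure D5:**
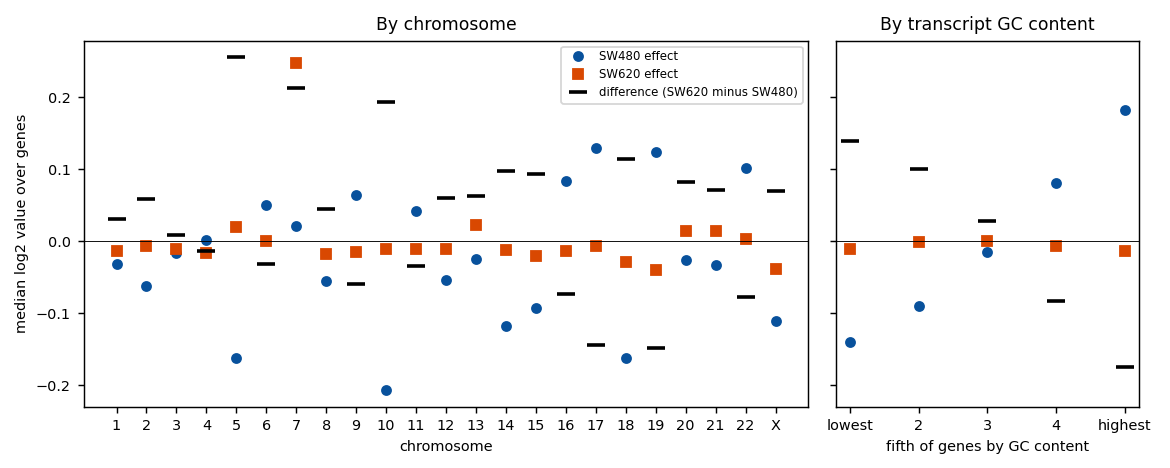
Left, median log2 effect of dnLEF1 in SW480 (circles) and SW620 (squares) and median line difference (bars) for the genes of each chromosome; right, the same for 5 equal groups of genes by GC content of their transcripts. Chromosome 7 is the 1 chromosome with a high SW620 median (0.25), and the SW480 median goes from -0.14 to 0.18 from the lowest to the highest group while the SW620 median stays near 0.

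The line difference also varied with the base composition and with the length of the transcript. Over 13497 genes in 5 equal groups by GC content the median line difference was 0.14, 0.10, 0.03, -0.08 and -0.17 from the lowest to the highest group. The SW480 medians went from -0.14 to 0.18, and the SW620 medians stayed within 0.02 of 0. In the lowest group 23.9% of genes differed positively and 5.81% negatively, and in the highest group 9.70% and 21.8%. All 4 SW480 GFP libraries had less signal in high-GC than in low-GC genes (-0.059 to -0.224, log2 relative to the line's mean) and all 4 SW480 dnLEF1 libraries had more (0.063 to 0.252), while SW620 libraries of both groups had values of either sign. With offsets that remove such a trend, an alternative chosen after seeing the data, 4070 genes were called, and 3440 of the 4248 kept their call. Over 5 equal groups by transcript length the median line difference went from -0.12 in the shortest to 0.15 in the longest. From the shortest to the longest group, positive calls went from 8.81% to 23.6% and negative calls from 14.3% to 8.59%. The SW480 medians went from 0.14 to -0.19. The offsets above were for GC content only, and how far the length and GC trends overlap was not tested. Whether either trend arose in the cells or in library preparation was not tested.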

How the data were processed

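Polyadenylated RNA of 16 libraries was sequenced. The authors deposited a raw count of reads for each gene symbol. Trimmomatic, TopHat2, HTSeq, DESeq2 and the hg38 build are named in the submitters' processing notes. No version, annotation or strand setting is named in the sources used here, so a gene's reads cannot be separated from those of an overlapping or antisense gene. The 5 summary lines of each file, with 20.0% to 50.5% of its total, were left out. Gene counts came to 17181204 to 26153506 per library, and log2 CPM correlated at 0.991 to 0.995 within groups. No pair of libraries agreed within counting noise (chi-square per degree of freedom 1.96 to 20.97).

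The counts were fitted with edgeR 4.0.16 (R 4.3.3) with 4 group means, using TMM scaling, the filterByExpr filter on groups and the quasi-likelihood test. Adjusted p-values are Benjamini-Hochberg values over 14926 genes, called below 0.05. Effects are log2 fold changes, with an approximate SE (the absolute value over the square root of F), which is less reliable where a group has few counts or the value is near 0. CPM are TMM-scaled, with the mean ± SD of 4 libraries. Zero groups were set against a floor of 3 counts over the group. The fit was tested on simulated data.

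The comparison and the 34 gene lists (764 entries, 659 tested) were chosen with earlier results of these data known. Genes were named by a rule. LEF1, AXIN2, NKD1, LGR5, MYC, CCND1, CDH1, VIM and ZEB1 were taken whatever their values. Of genes with a mean of at least 5 CPM in 1 group, it took the 8 largest line differences each way, 8 opposite genes each way, 8 genes each way that moved in SW620 alone and 6 each way that moved alike. Each list gave its called members with the smallest adjusted p, at most 4, and not every gene taken is printed. A few results are not reported here. Other members of a list are named to describe its count and were chosen after their values were seen. Positions came from GENCODE 44 for 22923 symbols (86.6%). Promoters came from RefSeq. Alternatives used limma 3.58.1 and DESeq2 1.42.0.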

Additional observations from a re-analysis of the deposited data

Results flagged for a closer look

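For 7 of the 30 genes examined library by library for this section, the effect of dnLEF1 was called in opposite directions in the 2 lines. By definition, each of the 7 also passed the test of the difference itself. Some of the 30 genes were named by the rule that takes opposite genes, so their share is not that of all genes. The log2 line differences were 3.03 for APCDD1, 4.20 for FZD10, 5.25 for SCG2, 2.90 for CHGB and 3.89 for DCLK1, which fell in SW480 and rose in SW620. They were -2.83 for CDH1 and -5.65 for ALCAM, which rose in SW480 and fell in SW620. Over all genes tested, 4248 passed that test (28.5%) and 259 moved in opposite directions (1.74%).

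Single libraries stood apart from the other 3 of their group by Dixon's criterion for 10 of 120 groups of 4 CPM values (30 genes in 4 groups). Chance alone gives about 1 in 20. LEF1 was at 48.8 in SW480 GFP replicate 3 and at 173 in SW480 dnLEF1 replicate 4. In that last library AXIN2 was at 63.1 and ITGA1 at 9.82, the lowest of their groups. FZD10 was at 1.19 in SW480 GFP replicate 3 and at 0.131 in SW480 dnLEF1 replicate 1, and MET was at 263 in SW620 dnLEF1 replicate 2. In SW480 GFP replicate 4, CHGB was at 20.9 and RNA45S5 at 9.98. SW620 GFP replicate 3 had RNA45S5 at 163, and 39.4% of its reads were counted as aligned to more than 1 place, against 7.61% to 9.46% in the other 15 libraries.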

How the results depend on the processing

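The 28 alternatives, 16 of which left out 1 library each, changed the sign of no called line difference. A test against a 1.5-fold difference, which asks for more, left 1012 genes, 663 positive and 349 negative, and 23 with opposite directions. Opposite genes numbered 134 with chromosomes 5, 7 and 20 left out and 144 with 46 bins left out. The first of these leaves out chromosomes that hold 105 of the 202 and 6 of the 57 opposite genes. With 1 library left out, 3614 to 4545 genes were called, 2053 to 2533 positive and 1538 to 2012 negative, 1208 to 1301 of at least 2-fold, and 214 to 279 opposite. DESeq2's Wald test called 4667 genes and limma voom 4480. The share of positive calls was 56.9%, and 52.2% with upper-quartile scaling. Replicate numbers were not used to pair the samples in the main fit. Same-numbered libraries correlated at -0.1516 to 0.2516 in their deviations from the group means. A library correlated best with its own number in 27 of 48 comparisons of 1 library with the 4 of another group, where 1 of the 4 bore that number. Same-numbered libraries were thus the best match more often than random matching would give, and the source of this was not tested. The 6 pairs of replicate 1 were all above 0, at 0.136 to 0.252. With the replicate number as a block, 4835 genes were called, 2670 positive and 2165 negative, 1289 of at least 2-fold and 352 opposite, and 4225 of the 4248 remained. Of 170 named genes, 155 kept their side of the threshold in every alternative in which they were tested, 25 to 27 for each gene with the test against 1.5-fold not counted. LEF1 lost its call in 11 alternatives, VIM in 12, RRS1 in 11, DDIT4 in 8, RN7SL1 in 5, HEYL, UTP20 and FAM105A in 2 each, DUSP1 in 1, MAGEC2 without SW620 GFP replicate 1 and DACH2 without SW620 dnLEF1 replicate 2. FGD5 gained it in 7, and ANTXR2, PTPRZ1 and TM4SF18 in 1 each. Of 1836 list counts recomputed, 117 moved by over 1.5 times. Depth limits genes near 0 in 1 line, whose fitted values depend on the prior count.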
